A study of Mus musculus with 6 samples.

Results

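Matrix metalloproteases and the tissue inhibitors that bind them were followed by array in macrophages sorted from mouse skin. The 10 genes were taken by name: the proteases Mmp2, Mmp8, Mmp9, Mmp12, Mmp13, Mmp14, Mmp19 and Mmp27 and the inhibitors Timp1 and Timp2. They are 10 of 22180 genes with a probe set of exactly 1 gene symbol, each lay on 1 such probe set, and all 10 were among the 15529 genes bright enough to be tested. Macrophages were sorted by the brightness of CX3CR1 into CX3CR1high cells (named "bright" in the sample titles), CX3CR1int (intermediate) cells and CX3CR1low cells. The labels give dermis as the source of the cells and ear skin as the tissue. All 3 groups came from C57Bl/6 mice, 2 weeks old and of genotype Cx3cr1+/gfp, in which the gene of green fluorescent protein takes the place of 1 copy of Cx3cr1, the receptor gene for the chemokine fractalkine. The mice were untreated as far as the labels tell and were housed in a specific-pathogen-free facility. Each group had 2 samples, from 2 independent litters, and each sample pooled 4 mice, so that a value is the mean of a pool and not of an animal.

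Matrix metalloproteases are zinc enzymes, made as inactive precursors, that cut collagens, elastin and other matrix proteins, and also growth factors and receptors at the cell surface. Tissue inhibitors of metalloproteases, the TIMPs, bind the active site of these enzymes and block it. In skin, macrophages and fibroblasts are known sources of both, and the enzymes take part in matrix turnover during growth and repair. TIMP2 has a second known role, since together with the membrane protease MMP14 it brings the precursor of MMP2 to activation.

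Of the set, 2 genes rose in CX3CR1high cells, the collagenase gene Mmp13 and the membrane protease gene Mmp14. Mmp13 was the higher in CX3CR1high cells against both other subsets, and Mmp14 passed the test against CX3CR1low cells. The elastase gene Mmp12 lay higher and both inhibitor genes lay lower in the CX3CR1high samples than in all 4 other samples, and none of these 3 passed the test. Mmp8, Mmp9, Mmp19 and Mmp27 did not pass in any comparison, nor did Mmp2, and no gene of the set passed between CX3CR1int and CX3CR1low cells.

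Promoters are shown of Mmp13 and Mmp14, which were called, and of Mmp12, which was not, because both CX3CR1high samples lay above all 4 others for these genes and no other member. Each is the 250 bases before an annotated start in RefSeq, build GRCm38.p6, plus strand, with the motifs TGANTCA (the AP-1 site), TATAAA (the TATA box) and GGGCGG (the GC box bound by Sp1), on either strand, in capitals.
Mmp13, chr9:7272264-7272513: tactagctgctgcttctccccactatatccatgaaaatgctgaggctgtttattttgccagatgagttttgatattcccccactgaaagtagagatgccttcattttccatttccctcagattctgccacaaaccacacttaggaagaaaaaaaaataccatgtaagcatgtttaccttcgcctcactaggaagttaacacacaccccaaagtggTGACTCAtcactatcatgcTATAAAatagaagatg
Mmp12, second start, chr9:7347124-7347373: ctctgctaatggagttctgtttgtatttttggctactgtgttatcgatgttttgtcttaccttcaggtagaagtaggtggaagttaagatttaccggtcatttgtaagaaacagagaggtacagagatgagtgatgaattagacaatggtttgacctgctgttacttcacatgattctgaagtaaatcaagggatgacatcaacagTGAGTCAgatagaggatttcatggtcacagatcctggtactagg
Mmp14, chr14:54431348-54431597: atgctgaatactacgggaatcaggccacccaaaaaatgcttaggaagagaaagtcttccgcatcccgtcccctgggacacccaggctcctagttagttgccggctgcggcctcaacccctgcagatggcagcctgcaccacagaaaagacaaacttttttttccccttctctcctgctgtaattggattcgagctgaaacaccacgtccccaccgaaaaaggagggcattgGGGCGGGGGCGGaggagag
In the Mmp13 window the AP-1 match began 35 bases before the start, and in the Mmp12 window 44 bases before it. The window at the first annotated start of Mmp12 held none of the 3 motifs, and the Mmp14 window held 2 adjoining GC boxes and no AP-1 match. The table of promoters covered 7 of the 10 genes in 8 windows, without Mmp2, Mmp9 and Mmp19. The AP-1 motif was in 2 of the 8 windows, against 6.75% of 32851 windows of all genes, and it was absent from those of Mmp8, Mmp27, Timp1 and Timp2. The TATA box was in 1 of the 8, that of Mmp13, against 12.37% of all windows. The GC box was in 3 of the 8, those of Mmp14, Timp1 and Timp2, against 32.74% of all windows. The motif ACCACA, the core bound by RUNX factors, is left in lower case, and it was in 3 of the 8 windows, those of Mmp13, Mmp14 and Mmp27, against 14.05% of all. A match is a description of the letters in a window, and binding was not measured.

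Of the set, 4 genes are neighbours. RefSeq lists 10 protein-coding genes from Mmp13 to Mmp7 on chromosome 9, all of them Mmp genes, in the order Mmp13, Mmp12, Mmp1b, Mmp3, Mmp1a, Mmp10, Mmp8, Mmp27, Mmp20 and Mmp7. Of the 4 members in this row only Mmp13, the first, passed the test in CX3CR1high cells, and Mmp12, Mmp8 and Mmp27 did not. Mmp14 lies on chromosome 14, Mmp2 on 8, Mmp9 on 2, Mmp19 on 10, Timp2 on 11 and Timp1 on X. Other annotated genes overlap 6 members in RefSeq, the lncRNA Gm31751 both Mmp8 and Mmp27, the lncRNA Gm45472 Mmp2, and the protein-coding genes Tmem198b, Syn1 and Cep295nl Mmp19, Timp1 and Timp2 in that order. Whether a probe set also reads the overlapping gene was not tested. Mmp12, Mmp13, Mmp14 and Mmp9 overlap none.

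The arrays were alike as a whole, their median log2 signals lying from 4.84 to 4.94, and precision is limited by their number. The sort could be read in Cx3cr1 itself, which was at 10.55 and 9.51 in CX3CR1high, 7.05 and 6.84 in CX3CR1int, and 5.87 and 7.01 in CX3CR1low samples. The CX3CR1high samples stood apart, and the other 2 subsets overlapped. Of 11 macrophage markers 10 were on the array, all above the dim level of 4.335, and their mean was 10.55 and 10.55 in CX3CR1high, 10.4 and 10.74 in CX3CR1int, and 10.73 and 10.57 in CX3CR1low samples. The female transcript Xist lay between 7.39 and 7.97 in replicates 1 and between 10.99 and 11.39 in replicates 2, so that the 2 samples of every subset differed in it. Its part in the spread of the members was not tested.

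Mmp13 encodes collagenase 3, which cuts the fibrillar collagens of the dermis and is regarded as the main interstitial collagenase of the mouse. Its log2 signal was 7.81 and 8.17 in CX3CR1high, 5.68 and 5.67 in CX3CR1int, and 5.81 and 6.39 in CX3CR1low samples. Both CX3CR1high samples lay at least 1.42 above all others, a gap wider than the SD of any subset, the largest of which was 0.41 in CX3CR1low cells (n = 2). Mmp13 rose in CX3CR1high against CX3CR1low cells by 1.89 ± 0.23 on the log2 scale (SE, 95% interval 1.36 to 2.42), which is 3.71-fold (limma, adjusted p = 0.0180). It rose against CX3CR1int cells by 2.32 ± 0.23 (SE, 95% interval 1.79 to 2.84), which is 4.98-fold (adjusted p = 0.0351), the second smallest p of all genes in that comparison. In sorted pools a change in the level per cell cannot be told apart from a change in the share of cells that hold the transcript. Between CX3CR1int and CX3CR1low cells Mmp13 differed by -0.43 ± 0.23 (SE, adjusted p = 0.996), without overlap of the samples.

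The call of Mmp13 depended on single samples. Its direction could not, since both CX3CR1high samples lay above all others. Against CX3CR1low cells the call ended without CX3CR1high sample 1 (2.07, adjusted p = 0.158), CX3CR1high sample 2 (1.71, 0.136) or CX3CR1low sample 1 (1.6, 0.0793). Against CX3CR1int cells it ended without either CX3CR1high sample (adjusted p = 0.274 and 0.104) or either CX3CR1int sample (0.193 and 0.181), with differences between 2.14 and 2.50. A subset left with 1 sample is assumed in these fits to vary like the others.

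Mmp8 encodes neutrophil collagenase, the other collagenase of the set. It was at 4.59 and 4.45 in CX3CR1high, 4.72 and 5.59 in CX3CR1int, and 4.32 and 4.79 in CX3CR1low samples. These signals were near the dim level, and the CX3CR1int sample 2 was the highest. Mmp8 differed by -0.64 ± 0.29 between CX3CR1high and CX3CR1int cells (SE, 95% interval -1.28 to 0.014, adjusted p = 0.636) and by -0.035 ± 0.29 between CX3CR1high and CX3CR1low cells (SE, 95% interval -0.68 to 0.61, adjusted p = 0.983). Of 9 neutrophil markers, 3 lay below the dim level, among them the neutrophil surface antigen gene Ly6g. The mean of the list was 4.48 and 4.43 in CX3CR1high, 4.32 and 4.61 in CX3CR1int, and 4.3 and 4.63 in CX3CR1low samples, and its part in the signal of Mmp8 was not tested.

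Mmp14 encodes MT1-MMP, an enzyme anchored in the cell membrane that cuts collagen next to the cell and activates the precursors of MMP2 and MMP13. Its signal was 8.44 and 8.28 in CX3CR1high, 7.2 and 7.1 in CX3CR1int, and 6.83 and 7.22 in CX3CR1low samples. Both CX3CR1high samples lay at least 1.06 above the other 4, and the CX3CR1int samples lay between the CX3CR1low ones. Mmp14 rose in CX3CR1high against CX3CR1low cells by 1.34 ± 0.19 (SE, 95% interval 0.90 to 1.78), or 2.52-fold (adjusted p = 0.0370). Against CX3CR1int cells it differed by 1.21 ± 0.19 (SE, 95% interval 0.77 to 1.65, 2.31-fold), which did not pass (adjusted p = 0.0871). The call ended without any single sample of the 6, with differences between 1.14 and 1.53 and adjusted p between 0.0646 and 0.262, and it ended with no filter on dim genes (adjusted p = 0.0524).

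Mmp12 encodes macrophage elastase, named for the cell that makes it, which cuts elastin. It was at 7.35 and 8.01 in CX3CR1high, 6.22 and 6.47 in CX3CR1int, and 5.8 and 7.03 in CX3CR1low samples. The CX3CR1high samples were the highest, but the gap to the CX3CR1low sample 2 was 0.32, less than the SD of 0.87 in CX3CR1low cells (n = 2). Mmp12 differed by 1.27 ± 0.38 between CX3CR1high and CX3CR1low cells (SE, 95% interval 0.41 to 2.12, adjusted p = 0.292) and by 1.34 ± 0.38 between CX3CR1high and CX3CR1int cells (SE, 95% interval 0.48 to 2.19, adjusted p = 0.381). The difference from CX3CR1low cells was 0.65 without CX3CR1low sample 1 and 1.88 without CX3CR1low sample 2. Replicate 2 was above replicate 1 in all 3 subsets, and with the replicate number as a block the SE was 0.24 and the adjusted p 0.0544 and 0.0771.

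**Figure D1:**
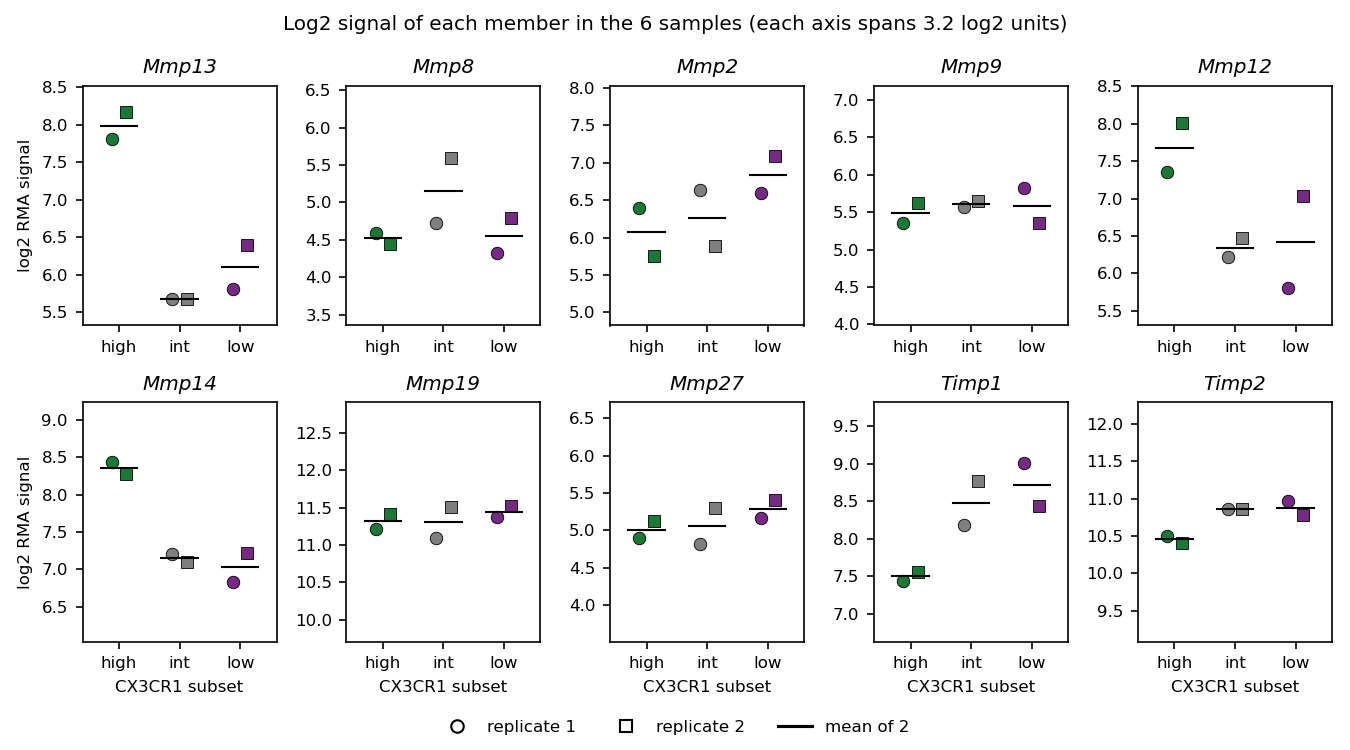
Log2 RMA signal (vertical axes, all of the same span) of the 10 genes in the CX3CR1high, CX3CR1int and CX3CR1low subsets. Circles are replicate 1, squares replicate 2 and lines the mean of 2. The CX3CR1high samples stand above the rest for Mmp12, Mmp13 and Mmp14 and below them for Timp1 and Timp2.

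The gelatinase genes Mmp2 and Mmp9 encode enzymes that cut denatured collagen and the collagen of basement membranes. Mmp2, best known from fibroblasts, was at 6.39 and 5.76 in CX3CR1high, 6.64 and 5.89 in CX3CR1int, and 6.59 and 7.09 in CX3CR1low samples. The CX3CR1low samples lay above the CX3CR1high ones, with an overlap in the CX3CR1int samples. Mmp2 differed by -0.77 ± 0.31 between CX3CR1high and CX3CR1low cells (SE, 95% interval -1.47 to -0.060, adjusted p = 0.482), and by -1.08 to -0.45 when single samples were left out. Mmp9, best known from neutrophils and activated macrophages, was at 5.36 and 5.62 in CX3CR1high, 5.57 and 5.65 in CX3CR1int, and 5.82 and 5.35 in CX3CR1low samples. The Mmp9 samples of all subsets overlapped, and its difference between CX3CR1high and CX3CR1low cells was -0.095 ± 0.21 (SE, 95% interval -0.57 to 0.38, adjusted p = 0.934).

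Neither Mmp19 nor Mmp27 passed the test in any comparison. Mmp19, a protease of basement membrane proteins, was at 11.22 and 11.41 in CX3CR1high, 11.1 and 11.51 in CX3CR1int, and 11.37 and 11.52 in CX3CR1low samples. Its range over the 6 samples was 0.42, the narrowest of the 10 genes, and its difference between CX3CR1high and CX3CR1low cells was -0.13 ± 0.16 (SE, 95% interval -0.49 to 0.23, adjusted p = 0.864). Mmp27 was at 4.9 and 5.12 in CX3CR1high, 4.82 and 5.3 in CX3CR1int, and 5.17 and 5.41 in CX3CR1low samples. Both CX3CR1low samples lay above both CX3CR1high ones, by less than the spread of a subset, and Mmp27 differed by -0.28 ± 0.21 (SE, 95% interval -0.76 to 0.20, adjusted p = 0.746).

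Timp1 encodes a secreted inhibitor that is induced in injury and inflammation. It was at 7.44 and 7.56 in CX3CR1high, 8.18 and 8.77 in CX3CR1int, and 9.01 and 8.43 in CX3CR1low samples. Both CX3CR1high samples lay at least 0.62 below all others, and the other 2 subsets overlapped. Timp1 differed by -1.22 ± 0.25 between CX3CR1high and CX3CR1low cells (SE, 95% interval -1.80 to -0.64, 2.33-fold lower), which did not pass (adjusted p = 0.113, and 0.0818 with the replicate block). Against CX3CR1int cells it differed by -0.98 ± 0.25 (SE, 95% interval -1.55 to -0.40, adjusted p = 0.324).

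Timp2 encodes the inhibitor that links MMP14 to the precursor of MMP2. It was at 10.5 and 10.41 in CX3CR1high, 10.86 and 10.86 in CX3CR1int, and 10.97 and 10.78 in CX3CR1low samples. The CX3CR1high samples were again the lowest of the 6, by 0.28, within a range of 0.56. Timp2 differed by -0.42 ± 0.13 between CX3CR1high and CX3CR1low cells (SE, 95% interval -0.71 to -0.13, adjusted p = 0.300) and by -0.41 ± 0.13 between CX3CR1high and CX3CR1int cells (SE, 95% interval -0.70 to -0.11, adjusted p = 0.447). Of the 3 genes of the complex that activates the MMP2 precursor, Mmp14 thus passed the test in CX3CR1high against CX3CR1low cells. Timp2 and Mmp2 did not.

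Over the whole set, 2 of 10 genes were called in CX3CR1high against CX3CR1low cells, both higher, where 0.399% of all genes tested were called. Those were 62 of 15529 genes, 33 higher and 29 lower, and with each array centred on its median 17 were higher and 23 lower. With the replicate block 154 genes were called, and of the set again Mmp13 and Mmp14. At an unadjusted p below 0.05 there were 6 of the 10 genes, 3 higher (Mmp12, Mmp13, Mmp14) and 3 lower (Mmp2, Timp1, Timp2), against 9.65% of all genes. The samples of the 2 subsets did not overlap for 7 of the 10, against 38.3% of all genes. The median difference of the set was -0.11, and that of all genes 0.005. The median size of the difference, without its sign, was 0.59 in the set and 0.17 over all genes. Members were picked with earlier results of these arrays known, so that these shares describe the set and do not test it.

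Against CX3CR1int cells, CX3CR1high cells had 1 gene of the 10 called, Mmp13, where 0.142% of all genes were called. With the replicate block 47 genes in place of 22 were called, and Mmp13 stayed the only one of the set. At an unadjusted p below 0.05 there were 5 of the 10, Mmp12, Mmp13 and Mmp14 higher and Timp1 and Timp2 lower, against 7.89% of all genes. The samples did not overlap for 6 of the 10, against 36.8% of all genes. Both CX3CR1high samples lay outside all 4 other samples for 5 of the 10 genes, 3 above and 2 below, against 18.3% of all genes. The 2 comparisons share the CX3CR1high samples and are not independent.

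Between CX3CR1int and CX3CR1low cells 0 of the 10 genes were called by limma, where 0.00644% of all genes were called, which is 1 gene. At an unadjusted p below 0.05 there were also 0 of the 10, against 4.89% of all genes. The samples did not overlap for 1 of the 10, Mmp13, against 31.4% of all genes. The differences ran from -0.58 for Mmp2 (95% interval -1.28 to 0.13) to 0.60 for Mmp8 (95% interval -0.049 to 1.25). For the 2 genes called in CX3CR1high cells, the interval of the difference between CX3CR1int and CX3CR1low cells was -0.95 to 0.10 for Mmp13 and -0.32 to 0.57 for Mmp14.

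**Figure D2:**
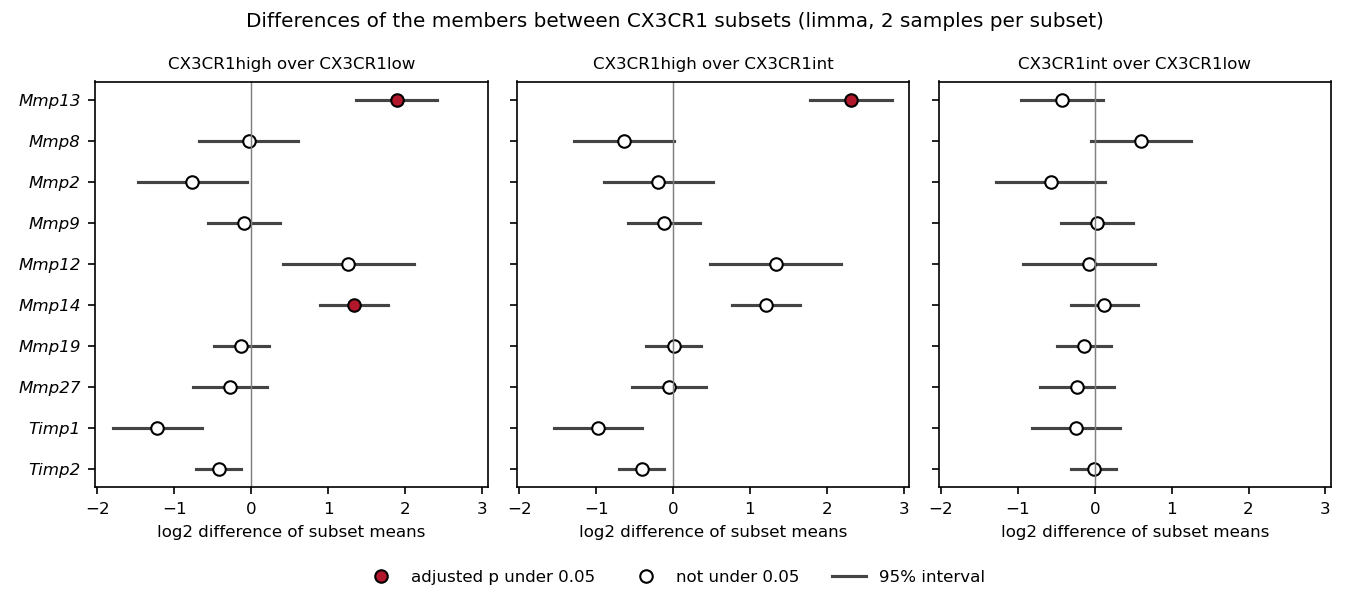
Log2 difference of subset means (horizontal axis) with its 95% interval for the 10 genes in the 3 comparisons, from limma over 2 samples per subset. Filled points have an adjusted p below 0.05, which are Mmp13 (1.89) and Mmp14 (1.34) in CX3CR1high over CX3CR1low cells and Mmp13 (2.32) in CX3CR1high over CX3CR1int cells.

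The remaining genes of the family did not pass in any comparison. Of 15 other Mmp genes 14 were on the array and 9 were bright enough to test. Mmp1a, Mmp1b, Mmp16, Mmp20 and Mmp28 were left out as dim. Mmp25, a protease anchored in the membrane of leukocytes, had the smallest p in CX3CR1high against CX3CR1low cells, with 5.71 in both CX3CR1high samples, 5.21 and 5.26 in CX3CR1int samples, and 5.01 and 5.13 in CX3CR1low samples. Mmp25 was 0.64 ± 0.16 higher (SE, adjusted p = 0.204), and its CX3CR1high samples overlapped neither other subset. Of the other inhibitors, Timp3, which binds to the matrix, differed by -0.63 ± 0.28 (SE, adjusted p = 0.517), and Reck, which inhibits from the cell membrane, by -0.41 ± 0.20 (SE, adjusted p = 0.569). The third inhibitor gene tested, A2m, differed by -0.11 (adjusted p = 0.913), and Timp4 was dim.

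Among lists of other protease families, the ADAM, ADAMTS and plasminogen activation lists showed 0 calls by limma in the 3 comparisons without the block. Of 9 ADAM sheddase genes tested, which cut proteins from the cell surface, 1 was higher and 1 lower at an unadjusted p below 0.05 in CX3CR1high against CX3CR1low cells, and the TNF-releasing Adam17 differed by 0.47 ± 0.18 (SE, adjusted p = 0.438). Of 14 ADAMTS genes tested, 1 was lower at that level, Adamts4, which cuts aggrecan, with -0.60 ± 0.22 (SE, adjusted p = 0.412). Of 8 genes of plasminogen activation tested, 1 was higher, the activator gene Plat (0.57 ± 0.22, SE, adjusted p = 0.453), and 1 lower, the inhibitor gene Serpinb2 (-0.60 ± 0.26, SE, adjusted p = 0.514). The median differences of these lists were -0.085, -0.045 and -0.035, near that of all genes.

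The cathepsin list held Ctsk, the gene of a lysosomal collagenase. Ctsk was at 5.75 and 6.71 in CX3CR1high, 7.23 and 7.16 in CX3CR1int, and 8.12 and 7.75 in CX3CR1low samples. No subset overlapped another, and Ctsk differed by -1.71 ± 0.30 between CX3CR1high and CX3CR1low cells (SE, adjusted p = 0.0634), a call with the replicate block (adjusted p = 0.0367). Of the 10 genes of the list tested, 2 were lower at an unadjusted p below 0.05, Ctsk and Ctsl (-0.53 ± 0.19, SE, adjusted p = 0.388). In the CX3CR1high samples the extracellular collagenase gene Mmp13 was thus highest and the lysosomal collagenase gene Ctsk lowest, though Ctsk passed only with the replicate block. The median difference of the cathepsin list between CX3CR1high and CX3CR1low cells was -0.068.

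Among 13 genes of collagen and matrix uptake, the integrin genes Itgav and Itgb5 rose in CX3CR1high against CX3CR1low cells, 2 of 13 called. Over all genes tested 0.399% were called. Itgav, whose integrins bind matrix proteins, differed by 1.66 ± 0.24 (SE, adjusted p = 0.0370), and against CX3CR1int cells it passed with the replicate block (1.39, adjusted p = 0.0408) and not without it (0.0958). Itgb5, a partner of the Itgav chain, differed by 1.53 ± 0.23 (SE, adjusted p = 0.0385). Against CX3CR1int cells Itgb5 did not pass (0.795, adjusted p = 0.387), and its CX3CR1int samples lay above the CX3CR1low ones. The median of the list was 0.07. Of 9 genes of protease activation and partners at the cell surface, 0 were called by limma, with 1 higher and 2 lower at an unadjusted p below 0.05. Tgm2, a transglutaminase that crosslinks matrix proteins, differed by 0.96 ± 0.23 (SE, adjusted p = 0.177). Furin, a convertase that activates the MMP14 precursor, differed by -0.47 ± 0.16 (SE, adjusted p = 0.374). The heparanase gene Hpse was at 4.85 and 6.85 in CX3CR1high, 8.55 and 8.41 in CX3CR1int, and 8.65 and 8.17 in CX3CR1low samples, and did not pass (-2.56 ± 0.52, SE, adjusted p = 0.105).

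Of 10 dermal matrix genes tested, which encode substrates of the proteases, 0 were called by limma in CX3CR1high against CX3CR1low cells. Of these genes 7 lay lower and 3 higher, with a median of -0.63, and against CX3CR1int cells 6 lay lower and 4 higher, with a median of -0.14. At an unadjusted p below 0.05, which 9.65% of all genes reached, 3 were lower against CX3CR1low cells, Col1a1 (-1.07 ± 0.19, SE, adjusted p = 0.0716), Col1a2 (-1.12 ± 0.21, SE, adjusted p = 0.0829) and Col3a1 (-1.07 ± 0.27, SE, adjusted p = 0.192), the chains of the fibrillar collagens that MMP13 and MMP14 cut. The fit with the replicate block called all 3, at adjusted p of 0.0453, 0.0492 and 0.0298. Of 12 fibroblast markers 10 lay lower, 8 of them at an unadjusted p below 0.05, and 2 higher, 1 of them at that level, and 0 were called by limma, while the block called Dcn, Col6a1 and Pcolce. The mean of the fibroblast list was 6.15 and 6.18 in CX3CR1high, 6.2 and 6.39 in CX3CR1int, and 6.5 and 7.18 in CX3CR1low samples. Fibroblasts are a known source of Mmp2, Mmp14, Timp1 and Timp2, and the list was lowest in the CX3CR1high samples, as were Timp1 and Timp2, while Mmp14 was highest there. The highest fibroblast mean and the highest Mmp2 signal were both in the CX3CR1low sample 2, whereas Timp1 and Timp2 were highest in the CX3CR1low sample 1. The part of fibroblast RNA in these differences was not tested.

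Markers of other skin cells also differed between the subsets. Of 5 mast cell markers tested the protease genes Cpa3 (-3.37, adjusted p = 0.00512), Mcpt4 (-2.26, 0.0168) and Cma1 (-1.87, 0.0130) fell in CX3CR1high against CX3CR1low cells. Against CX3CR1int cells Cpa3 was called (-2.39, adjusted p = 0.0405 by limma). Mcpt4 passed there with the replicate block (-1.545, adjusted p = 0.0254) and not without it (0.0956). The mean of the 7 on the array was 4.3 and 4.23 in CX3CR1high, 5.14 and 5.07 in CX3CR1int, and 5.68 and 5.34 in CX3CR1low samples, with Ms4a2 and Fcer1a below the dim level in the mean of all samples. Of 7 dendritic and Langerhans cell markers tested, 2 were higher and 1 lower in CX3CR1high cells at an unadjusted p below 0.05. The migration receptor gene Ccr7 differed by 1.32 ± 0.22 (SE, adjusted p = 0.0510, and 0.0239 with the replicate block) and the Langerhans cell lectin gene Cd207 by 1.22 ± 0.29 (SE, adjusted p = 0.181). The lower gene, Zbtb46, differed by -0.425 ± 0.18 (SE, adjusted p = 0.5), and the median difference of the 7 was 0.145. The mean of that list was 5.51 and 5.48 in CX3CR1high, 5.33 and 5.37 in CX3CR1int, and 5.12 and 5.21 in CX3CR1low samples. The part of mast, dendritic and Langerhans cells in the differences of the set was not tested. Of 9 keratinocyte markers tested 8 lay lower in CX3CR1high against CX3CR1low cells and 1 higher, with a median of -0.48. At an unadjusted p below 0.05 there were 4 lower and 0 higher, and Krt10 was called (-1.46, adjusted p = 0.0439). The part of keratinocytes in the differences of the set was not tested. Of 4 endothelial and 4 T and NK cell markers tested 0 were called by limma. At an unadjusted p below 0.05 these lists had 0 higher and 1 lower, and 1 higher and 1 lower.

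**Figure D3:**
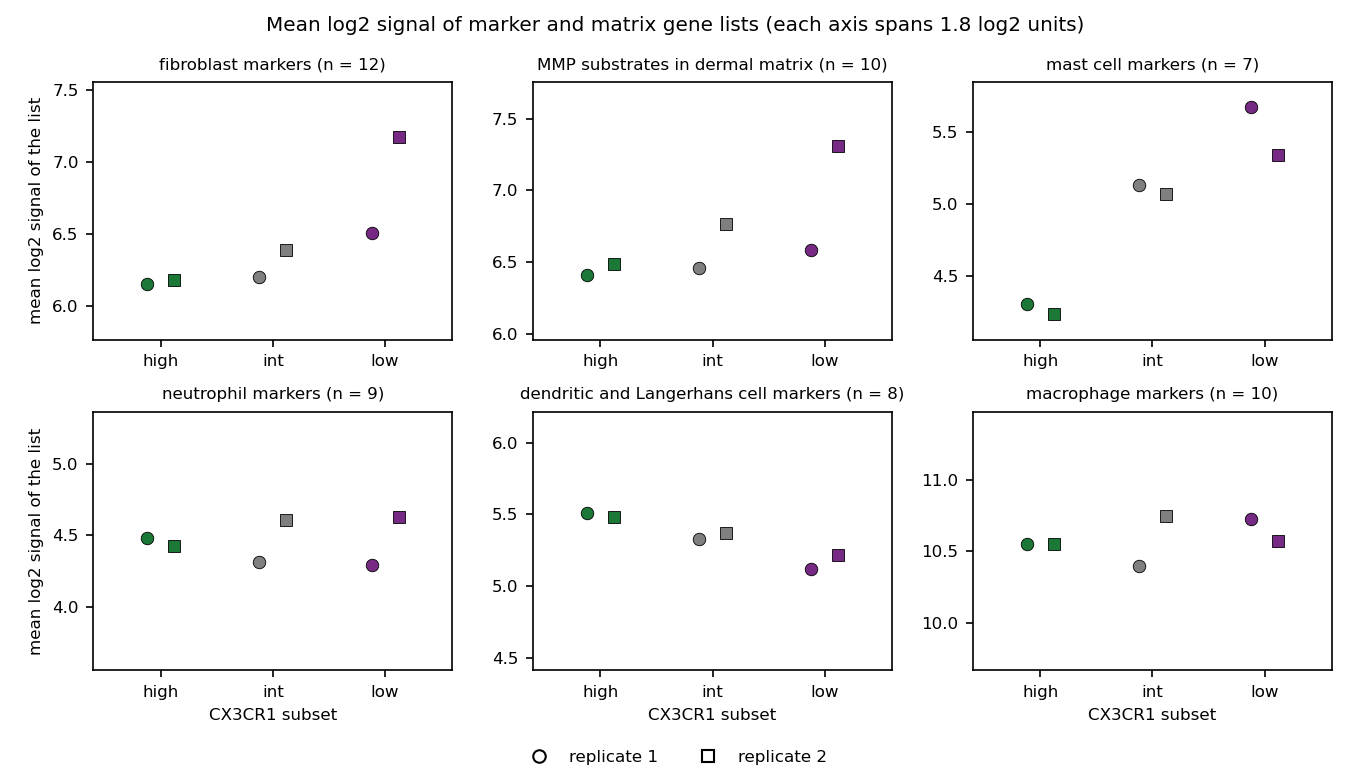
Mean log2 signal of the genes of 6 lists (vertical axes, all of the same span) in the CX3CR1high, CX3CR1int and CX3CR1low samples, circles for replicate 1 and squares for replicate 2. Fibroblast and mast cell markers are highest in CX3CR1low samples, at 6.5 and 7.18 and at 5.68 and 5.34, and macrophage markers lie between 10.4 and 10.74 in all samples.

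The pattern of Mmp13 over the 6 samples was compared with that of every other gene tested, as the root-mean-square difference of log2 values after each gene was centred on its own mean. The nearest of 15528 genes were Itga6, an integrin chain of laminin receptors, at 0.29, F11r, a junctional adhesion molecule, at 0.32, and Cd69, an activation antigen of leukocytes, at 0.37. All 3 were called against CX3CR1low and CX3CR1int cells. Of the set, Mmp12 ranked 10 and Mmp14 ranked 12 in likeness to Mmp13, while Timp1 ranked 15464. Nearest to Mmp14 were Mthfs, an enzyme of folate metabolism, at 0.10, the adaptor gene Sla at 0.13, and AU020206 at 0.16. Mmp12 ranked 163 and Mmp13 ranked 926 in likeness to Mmp14, since Mmp13 had the larger change. Mthfs (1.19, adjusted p = 0.0434) and Sla (1.39, adjusted p = 0.0370) rose in CX3CR1high against CX3CR1low cells, and AU020206 did not pass (1.15, adjusted p = 0.179). These ranks describe 6 samples in 3 subsets, where any genes that are high in CX3CR1high cells by a like amount come out near each other.

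**Figure D4:**
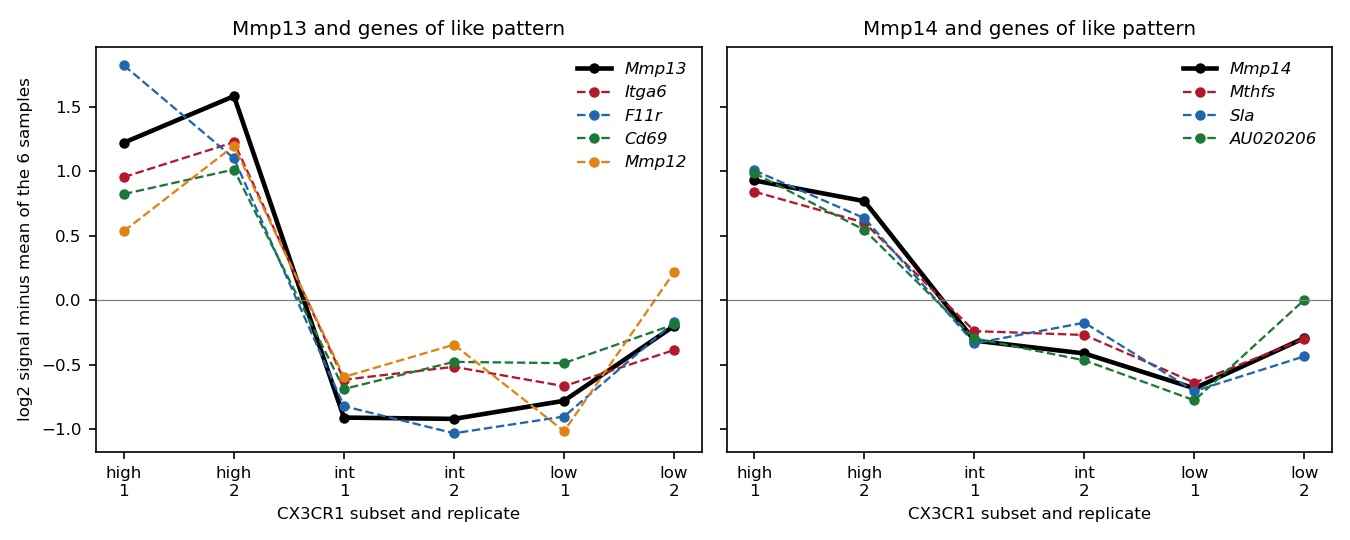
Log2 signal minus the mean of the 6 samples (vertical axis) for Mmp13 with its 3 nearest genes and Mmp12 (left) and for Mmp14 with its 3 nearest genes (right), in the order CX3CR1high, CX3CR1int and CX3CR1low with replicates 1 and 2. In both panels the 2 CX3CR1high samples lie above all others, and lines join samples only to guide the eye.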

How the data were processed

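RNA of sorted cells was amplified with a whole-transcriptome kit and hybridised to Affymetrix arrays, per the labels' protocols. The deposited values are log2 signals, and the submitters' processing notes name RMA and Expression Console 1.4 for them. The annotation and build behind them are not given in the sources used here. They were used as given, and 0 columns were left unused. Of 34390 probe sets, 23521 had exactly 1 gene symbol, 1814 several and 9055 none. The brightest probe set stood for a gene, and genes under the 30th percentile of mean signal (4.335) were left out, which left 15529 of 22180.

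Subsets were compared in R 4.3.3 with limma 3.58.1, in 1 model with a mean per subset over all 6 samples, an intensity trend, two-sided tests, and p-values adjusted by Benjamini-Hochberg across the 15529 genes. A gene was called at an adjusted p below 0.05. The fit had 3 residual and 5.77 prior degrees of freedom. Its code was run on simulated data with independent noise in each sample. That run held no shared effect of the replicate number, so it checks the code and not the calls made here.

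The labels do not say that a replicate number marks a litter. Deviations of same-numbered samples from their subset means correlated at 0.178, 0.136 and 0.146 across genes for the 3 pairs of subsets. A fit with the replicate number as a block is therefore given where it changes a call of a member or a list gene. It is also given for Mmp12 and Timp1, where it changed no call. Genes named were the members, the called genes of each list of related or marker genes or, with none called, up to 3 with the smallest p in CX3CR1high over CX3CR1low cells, the 3 nearest patterns per called member, and Cx3cr1. Xist, Col6a1 and dim genes were named after their values were seen. Members and lists were chosen with earlier results of these data known. Alternatives left out each sample or changed the filter, variance prior, samples fitted, scaling or probe sets. Promoters came from RefSeq (GRCm38.p6), matched by symbol. Scan dates and single probes were not used here.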

Additional observations from a re-analysis of the deposited data

How the results depend on the processing

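The differences of the 10 genes and the counts of calls were recomputed under 16 alternatives, of which 6 left out a sample (15 for Mmp8). Genes of the other lists were recomputed with the replicate block alone, and the likeness ranks under no alternative. The 10 genes kept their side of the threshold and their direction in 434 of 477 such values, lost a call in 19 and turned sign in 24, none of these 24 from a called value. Many of the 477 differences could not change. The replicate block, the filters, the trend, the variance prior, the 4 samples alone and the probe set settings leave a member's difference as it is. So does leaving out a sample of the third subset. In those fits only the p-value can move, and a kept direction is no check. The rise of Mmp13 against CX3CR1low cells was called under 12 of 16 alternatives and against CX3CR1int cells under 10 of 16, and that of Mmp14 against CX3CR1low cells under 7 of 16. With the replicate block 154, 47 and 0 genes were called in CX3CR1high over CX3CR1low, CX3CR1high over CX3CR1int and CX3CR1int over CX3CR1low cells, and 2, 1 and 0 of the set; it changed no call of the set. With no filter on dim genes 26, 0 and 0 genes and 1, 0 and 0 of the set were called, and with every probe set on its own 18, 0 and 0 genes and 0 of the set, in both cases with more features to adjust over. With the 4 samples of the 2 subsets alone 39, 14 and 0 genes were called and 1, 1 and 0 of the set. Arrays centred on the median gave 40 and 14 genes in the first 2 comparisons. Without an intensity trend 4 and 0 genes, and with quantile normalization again 8 and 0 genes, were called in the last 2 comparisons, where the cause was not tested. Leaving out a sample gave 0 to 39, 0 to 18 and 0 to 0 genes and 0 to 1, 0 to 1 and 0 to 0 of the set, with fewer samples in each fit.

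Signs turned at differences near 0. Mmp19 in CX3CR1high over CX3CR1int cells was -0.01 with centred arrays and -0.002 with quantile normalization, and Mmp9 in CX3CR1int over CX3CR1low cells was -0.005 with centred arrays. Without single samples the ranges in CX3CR1high over CX3CR1low cells were -0.27 to 0.20 for Mmp8 and -0.33 to 0.14 for Mmp9. In CX3CR1high over CX3CR1int cells they were -0.57 to 0.19 for Mmp2, -0.25 to 0.01 for Mmp9, -0.20 to 0.22 for Mmp19 and -0.29 to 0.19 for Mmp27. In CX3CR1int over CX3CR1low cells they were -0.21 to 0.26 for Mmp9, -0.69 to 0.55 for Mmp12, -0.07 to 0.32 for Mmp14, -0.345 to 0.065 for Mmp19, -0.47 to 0.01 for Mmp27, -0.54 to 0.05 for Timp1 and -0.11 to 0.08 for Timp2. Mmp8 was left out as dim at the 50th percentile. With 2 pools per subset the differences of Mmp12, Timp1 and Timp2 stay below the threshold, which does not show that they are absent, and signals near 4.335, such as those of Mmp8, limit what can be seen.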
